A study of Arabidopsis thaliana with 24 samples.

Results

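Plants copy their genome once per division cycle, in S phase, before mitosis separates the copies. Origins of replication are first licensed by the origin recognition complex, CDC6 and CDT1, which load the ring-shaped MCM helicase. Cyclin-dependent kinases and their D-type cyclins inactivate the retinoblastoma protein, which frees E2F factors to switch on the genes of S phase. In a rosette leaf these genes are best known from young dividing tissue and from endoreduplication, in which the genome is copied without mitosis.

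Transcripts of 39 loci of DNA replication and the cell cycle were followed in rosette leaves of Tsu-1 and Kas-1, natural accessions of Arabidopsis thaliana. The loci were chosen by identifier, as a list of MCM, ORC, PCNA, ribonucleotide reductase, CDK, cyclin, E2F, retinoblastoma and H2A genes. The list was chosen with earlier results of these data known. Its counts of calls beside the shares of all loci are therefore descriptive and no test of an excess. Of them, 33 were among the 20514 loci with expression values, and ORC1A, MCM6, DEL1, CDKB1;1, CDKB1;2 and CYCB1;2 were not analysed here. They fall into 4 roles. Licensing had 9 genes in the table of 11 listed, DNA synthesis and chromatin 7 of 7, control of the step from G1 to S 9 of 10, and G2 with mitosis 8 of 11. The licensing and synthesis genes together are called the 16 S-phase genes below.

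The study grew both natural accessions, with no mutant or transgene, in single pots under short days. Dry pots lost water stepwise until about 50% remained on day 5, whereas wet pots were kept near 90%. Each of the 4 groups, Kas-1 dry, Kas-1 wet, Tsu-1 dry and Tsu-1 wet, had 6 arrays, numbered 1 to 6 in dry and 7 to 12 in wet soil. The design text speaks of 3 biological replicates per group, so some arrays may share plants or RNA, and p-values reflect how arrays differ, which may in part be technical.

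All values are log2 expression as the authors deposited it, and levels of different genes cannot be set against each other on this array. Array medians lay between 6.77 and 6.87. In the main test, limma compared the 4 group means over the 12308 loci whose mean exceeded the 40th percentile of all loci, a log2 value of 6.19, and called a gene at an adjusted p under 0.05. Only 13 of the 33 genes passed that filter, and none of them belongs to G2 and mitosis. A second limma fit over all 20514 loci, without the filter, therefore gives the values of the other 20 genes. Of the 33 genes, 9 had means below the lower quartile of all loci (5.21) in all 4 groups, 5 of these in G2 and mitosis, and small differences there are hard to see. The arrays measured whole leaves, so fewer cells in S phase and less RNA per such cell cannot be told apart.

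Most genes of DNA replication were lower in Tsu-1 than in Kas-1 averaged over the soils. Of the 33 genes, 17 were lower and 2 were higher in Tsu-1 in the fit without the filter, averaged over the soils, where 35% of all loci were called, 17.8% lower and 17.2% higher. Of the 16 S-phase genes, 13 were lower and 1 higher, with a median difference of -0.56 on the log2 scale against 0.01 over all loci. By soil, 12 of the 16 were lower and 1 higher in wet soil, and 6 were lower, 1 higher and 9 not called in dry soil. Of all loci, 11.2% were lower and 9.53% higher in wet soil, and 9.26% lower and 10.9% higher in dry soil. Among the 13 genes of the main test, 6 were lower and 2 higher, where 47.7% of the loci tested were called, 24.5% lower and 23.3% higher. The genes lower in Tsu-1 in that test were TSO2, PCNA1, RNR1, PCNA2, CDKA;1 and RNR2A, and the genes higher were HTA7 and CYCD2;1. Soil drying gave no call for any of the 33 genes. A difference between the accessions in transcript level and a difference in how their sequences bind the probes cannot be told apart in this design.

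**Figure D1:**
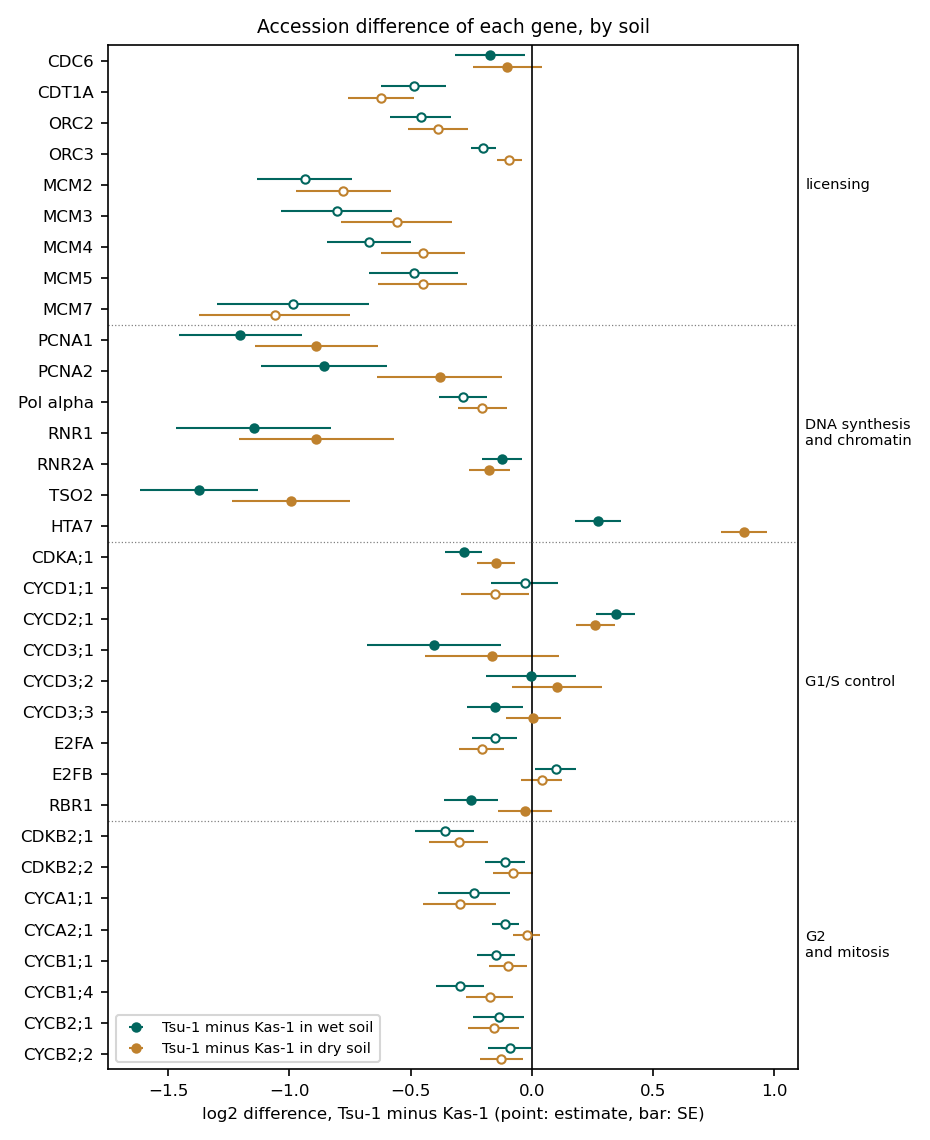
Log2 difference Tsu-1 minus Kas-1 (x axis) of each of the 33 genes (y axis, ordered by role) in wet and in dry soil, with the SE as bars, from the fit without the filter; filled points are the 13 genes above the filter and open points the 20 below it. In the fit averaged over the soils, 17 genes were lower in Tsu-1, 13 of them in S phase, and the points of HTA7 and CYCD2;1 lie on the other side of 0.

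Of the 7 genes of DNA synthesis and chromatin, 5 were lower and 1 higher in Tsu-1 without the filter, averaged over the soils. In that fit 17.8% of all loci were lower and 17.2% higher. The widest gap of the 33 genes averaged over the soils and in wet soil was that of TSO2. In dry soil MCM7 had the widest gap of the genes lower in Tsu-1 (-1.06). TSO2 (AT3G27060) encodes a small subunit of ribonucleotide reductase, the enzyme that makes the building blocks of DNA. Its values in Kas-1 wet ran from 8.64 to 9.78 with a median of 8.98, and in Tsu-1 wet from 7.03 to 8.26 with a median of 7.89. In Kas-1 dry they ran from 7.66 to 9.10 with a median of 8.83, and in Tsu-1 dry from 7.16 to 8.17 with a median of 7.68. In wet soil every Kas-1 array was above every Tsu-1 array. In dry soil the groups overlapped, since Kas-1 dry 2 lay within the range of Tsu-1. TSO2 was 2.27-fold lower in Tsu-1 averaged over the soils, a log2 difference of -1.18 (SE 0.17, limma adjusted p = 9.62e-06). The difference was -1.37 in wet soil (adjusted p = 2.6e-04, limma) and -0.99 in dry soil (adjusted p = 0.00427, limma).

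RNR1 (AT2G21790) encodes the large subunit of the same enzyme. Its values ran from 7.72 to 8.54 in Kas-1 wet (median 8.10) and from 6.36 to 8.10 in Tsu-1 wet (median 6.66). In dry soil they ran from 6.80 to 8.47 in Kas-1 (median 8.09) and from 6.22 to 7.88 in Tsu-1 (median 6.84). The accessions overlapped in both soils, through Tsu-1 wet 10, which stood high in its group, and through Kas-1 dry 1 and 2, which stood low. RNR1 was 2.03-fold lower in Tsu-1 averaged over the soils (log2 difference -1.02, SE 0.23, limma adjusted p = 9.08e-04). It was called in wet soil (-1.15, adjusted p = 0.0107, limma) and, narrowly, in dry soil (-0.89, adjusted p = 0.0403, limma). The dry-soil call was lost in 4 of 13 other settings, and on leaving out any 1 of Kas-1 dry 3, 4, 5 or 6 or of Tsu-1 dry 2, 3 or 4 (adjusted p from 0.0766 to 0.104).

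RNR2A (AT3G23580), another small subunit gene of ribonucleotide reductase, differed far less. Its values lay between 8.78 and 9.21 in Tsu-1 wet and between 9.04 and 9.31 in Kas-1 wet. In dry soil they lay between 8.92 and 9.16 in Tsu-1 and between 8.97 and 9.40 in Kas-1, and the accessions overlapped in both soils. The averaged difference was -0.15 (SE 0.06, limma adjusted p = 0.0380), and it was not called without the filter (adjusted p = 0.0520, limma) or without any 1 of 9 arrays (adjusted p from 0.0538 to 0.0710). These were Tsu-1 dry 6, Tsu-1 wet 7 and 11, Kas-1 wet 8, 9 and 10, and Kas-1 dry 1, 4 and 5.

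PCNA, the ring that clamps DNA polymerase to its template, is encoded by the close paralogs PCNA1 (AT1G07370) and PCNA2 (AT2G29570), and whether the probes separate them was not tested. PCNA1 ran from 7.35 to 8.79 in Kas-1 wet (median 7.70) and from 6.12 to 7.34 in Tsu-1 wet (median 6.57). In dry soil it ran from 6.64 to 7.94 in Kas-1 (median 7.70) and from 6.32 to 7.18 in Tsu-1 (median 6.42). The wet groups did not overlap, though the gap between the nearest arrays was narrow, and the dry groups overlapped through Kas-1 dry 1 and 2. PCNA1 was 2.06-fold lower in Tsu-1 averaged over the soils (log2 difference -1.05, SE 0.18, limma adjusted p = 6.77e-05), with -1.20 in wet soil (adjusted p = 0.00134, limma) and -0.89 in dry soil (adjusted p = 0.0117, limma).

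PCNA2 had medians of 7.32 in Kas-1 wet and 6.34 in Tsu-1 wet, and of 7.21 in Kas-1 dry and 6.54 in Tsu-1 dry, with overlapping ranges in both soils. It was 1.54-fold lower in Tsu-1 averaged over the soils (log2 difference -0.62, SE 0.18, limma adjusted p = 0.00824). It was called in wet soil (-0.86, adjusted p = 0.0169, limma) but not in dry soil (-0.38, adjusted p = 0.283, limma). The catalytic subunit of DNA polymerase alpha (AT5G67100, RefSeq symbol ICU2), which starts new strands, was below the filter. Without it the averaged difference was -0.24 (SE 0.07, limma adjusted p = 0.00894) at group means of 4.02 to 4.37, below the lower quartile of all loci. Its call in wet soil was lost on leaving out any 1 of 12 arrays (limma adjusted p from 0.0520 to 0.114).

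**Figure D2:**
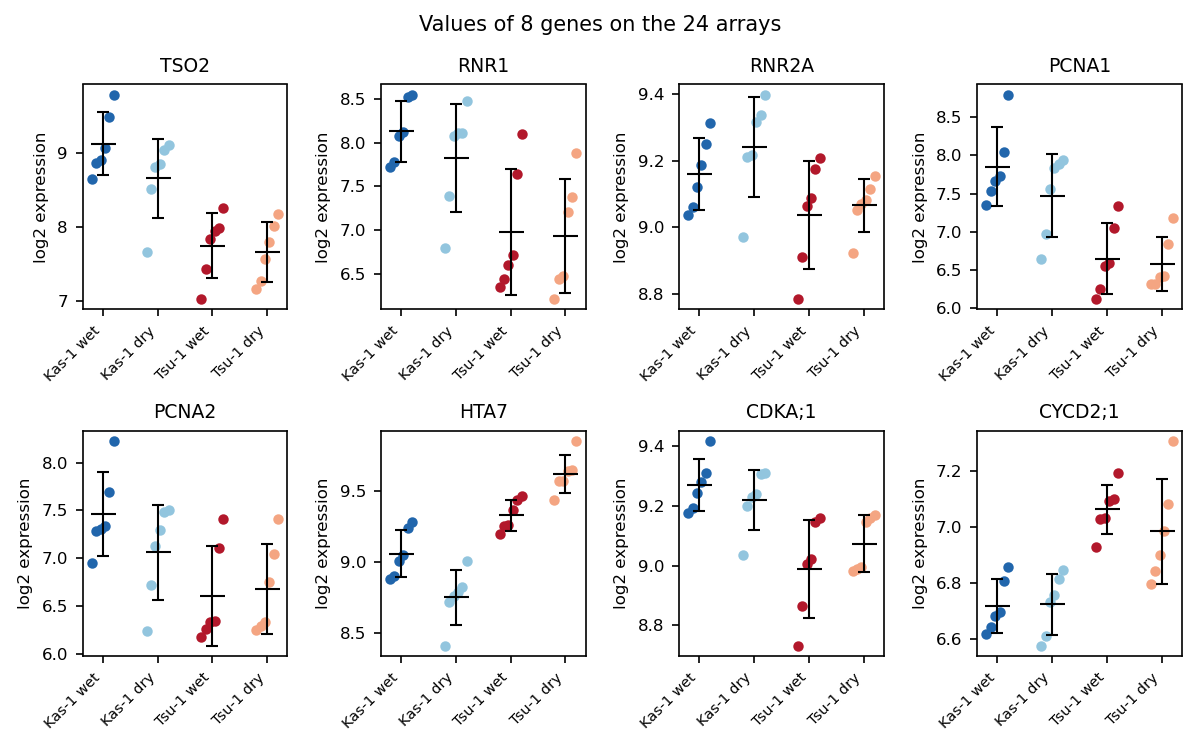
Log2 expression (y axis) of the 8 genes called in the main test in the 4 groups of 6 arrays (x axis); points are arrays, and the black marks are the mean and SD. TSO2 and PCNA1 in Tsu-1 wet lie wholly below Kas-1 wet, CYCD2;1 in Tsu-1 wet lies wholly above it, and HTA7 in Tsu-1 dry lies wholly above Kas-1 dry.

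HTA7 (AT5G27670), which encodes an H2A histone, was the only S-phase gene that was higher in Tsu-1. In dry soil its values ran from 9.44 to 9.85 in Tsu-1 (median 9.61) and from 8.41 to 9.01 in Kas-1 (median 8.77). In wet soil they ran from 9.20 to 9.47 in Tsu-1 (median 9.31) and from 8.88 to 9.28 in Kas-1 (median 9.03). In dry soil every Tsu-1 array was above every Kas-1 array, and in wet soil the ranges overlapped. HTA7 was 1.49-fold higher in Tsu-1 averaged over the soils (log2 difference 0.57, SE 0.07, limma adjusted p = 3.77e-07). The difference was 0.87 in dry soil (adjusted p = 3.35e-07, limma) and 0.27 in wet soil (adjusted p = 0.0330, limma), and the wet-soil call was lost in 3 of 13 other settings. It was also lost on leaving out any 1 of Kas-1 wet 7, 8, 10 or 11 or of Tsu-1 wet 7, 9 or 11 (adjusted p from 0.0535 to 0.0765).

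All 9 licensing genes in the table had lower means in Tsu-1. Averaged over the soils, 8 of them were called without the filter, where 17.8% of all loci were lower and 17.2% higher. CDC6 (AT2G29680), a loader of the helicase and the 1 licensing gene above the filter, was not called in the main test (-0.14, 95% interval -0.35 to 0.07, limma adjusted p = 0.280). The called genes stayed below the filter, with group means from 3.98 to 6.18, so their differences rest on dim signals.

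MCM7 (AT4G02060, RefSeq symbol PRL), a subunit of the MCM helicase, ran from 5.49 to 6.70 in Kas-1 wet (median 5.88) and from 4.24 to 6.08 in Tsu-1 wet (median 4.67). In dry soil it ran from 5.02 to 6.66 in Kas-1 (median 6.11) and from 4.50 to 5.79 in Tsu-1 (median 4.75). The ranges overlapped widely, but both Tsu-1 medians were below every Kas-1 array. The averaged log2 difference was -1.02 (SE 0.22, limma adjusted p = 8.30e-04). It was called in dry soil (-1.06) and in wet soil (-0.99). The dry-soil call was lost without Kas-1 dry 5 (limma adjusted p = 0.0505). The wet-soil call was lost on leaving out any 1 of Kas-1 wet 9 or 12 or of Tsu-1 wet 7, 9, 11 or 12 (limma adjusted p from 0.0546 to 0.0760).

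MCM2 (AT1G44900), another subunit of the ring, ran from 5.46 to 6.42 in Kas-1 wet (median 5.68) and from 4.35 to 5.21 in Tsu-1 wet (median 4.94). In dry soil it ran from 5.06 to 6.27 in Kas-1 (median 5.77) and from 4.63 to 5.26 in Tsu-1 (median 4.75). The wet groups did not overlap, and the dry groups did. MCM2 differed by -0.86 averaged over the soils (SE 0.14, limma adjusted p = 3.86e-05), by -0.94 in wet soil (adjusted p = 0.00151) and by -0.78 in dry soil (adjusted p = 0.00644).

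CDT1A (AT2G31270), which helps to load the helicase, had medians of 6.00 in Kas-1 wet and 5.45 in Tsu-1 wet, and of 6.05 in Kas-1 dry and 5.36 in Tsu-1 dry. Its ranges overlapped in both soils. The averaged difference was -0.56 (SE 0.10, limma adjusted p = 7.83e-05), and it was called in wet soil (-0.49, adjusted p = 0.0125) and in dry soil (-0.62, adjusted p = 0.00185). ORC2 (AT2G37560), a subunit of the origin recognition complex, differed by -0.42 (limma adjusted p = 6.36e-04) averaged over the soils. The helicase subunits MCM3 (AT5G46280), MCM4 (AT2G16440) and MCM5 (AT2G07690) differed by -0.68, -0.56 and -0.47, with adjusted p-values of 0.00201, 9.17e-04 and 0.00662 (limma, n = 12 arrays per accession). ORC3 (AT5G16690) had the smallest called difference of the licensing genes, -0.15 (adjusted p = 0.00299), at group means of 3.98 to 4.18.

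The genes that control entry into S phase showed small differences in both directions. Of the 9 in the table, 2 were lower and 1 higher in Tsu-1 without the filter, with a median difference of -0.09, a share of calls near the 35% of all loci called in that fit. CDKA;1 (AT3G48750, RefSeq symbol CDC2), the main cyclin-dependent kinase of plants, ran from 9.18 to 9.42 in Kas-1 wet (median 9.26) and from 8.73 to 9.16 in Tsu-1 wet (median 9.01). In dry soil it ran from 9.04 to 9.31 in Kas-1 (median 9.23) and from 8.98 to 9.17 in Tsu-1 (median 9.07). The wet groups just missed each other, and the dry groups overlapped. The averaged difference was -0.21 (SE 0.05, limma adjusted p = 0.00242), with -0.28 in wet soil (adjusted p = 0.00826) and -0.15 in dry soil, which was not called (adjusted p = 0.150).

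CYCD2;1 (AT2G22490), a D-type cyclin, was higher in Tsu-1. It ran from 6.62 to 6.86 in Kas-1 wet (median 6.69) and from 6.93 to 7.19 in Tsu-1 wet (median 7.06). In dry soil it ran from 6.58 to 6.85 in Kas-1 (median 6.75) and from 6.80 to 7.31 in Tsu-1 (median 6.94). The wet groups did not overlap, and the dry groups overlapped by a narrow margin. The averaged difference was 0.30 (SE 0.05, limma adjusted p = 1.06e-04), and it was called in wet soil (0.34, adjusted p = 0.00204) and in dry soil (0.26, adjusted p = 0.0136).

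The other D-type cyclins above the filter were not called. CYCD3;1 (AT4G34160) differed by -0.28 (95% interval -0.69 to 0.12), CYCD3;2 (AT5G67260) by 0.05 (-0.22 to 0.32) and CYCD3;3 (AT3G50070) by -0.07 (-0.24 to 0.09), averaged over the soils. RBR1 (AT3G12280), the retinoblastoma protein that restrains E2F, differed by -0.14 (95% interval -0.30 to 0.02, limma adjusted p = 0.149). Below the filter, E2FA (AT2G36010, RefSeq symbol E2F3), an activator of S-phase genes, was lower in Tsu-1 (-0.18, limma adjusted p = 0.0341), a call lost in 4 of 10 other settings and on leaving out any 1 of 10 arrays (adjusted p from 0.0531 to 0.0655). These were Tsu-1 dry 2, 3 and 4, Tsu-1 wet 7, 9 and 12, Kas-1 dry 3, 4 and 6, and Kas-1 wet 12. The activator E2FB (AT5G22220, RefSeq symbol E2F1) and the cyclin CYCD1;1 (AT1G70210) were not called (0.07 and -0.09).

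All 8 genes of G2 and mitosis had lower means in Tsu-1, but the differences were small, with a median of -0.14. In the fit without the filter 2 were called, where 35% of all loci were called, 17.8% lower and 17.2% higher. CDKB2;1 (AT1G76540), a plant-specific kinase of G2 and mitosis, had medians of 5.87 in Kas-1 wet and 5.54 in Tsu-1 wet, and of 5.86 in Kas-1 dry and 5.57 in Tsu-1 dry. Its ranges overlapped in both soils, and the averaged difference was -0.33 (SE 0.09, limma adjusted p = 0.00375). CYCB1;4 (AT2G26760), a B-type cyclin, differed by -0.24 (SE 0.07, limma adjusted p = 0.0104). The other 6, CDKB2;2 (AT1G20930), CYCA1;1 (AT1G44110), CYCA2;1 (AT5G25380), CYCB1;1 (AT4G37490), CYCB2;1 (AT2G17620) and CYCB2;2 (AT4G35620), differed by between -0.27 and -0.07, and their adjusted p-values ran from 0.0505 to 0.232 (limma). Whether the gap of the S-phase genes differs from that of the mitotic genes was not tested.

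Within each soil the same signs were seen for most genes. In wet soil 15 of the 33 genes were lower and 2 higher in Tsu-1 without the filter, where 11.2% of all loci were lower and 9.53% higher. In the main test 5 of 13 were lower and 2 higher, where 30.1% of the loci were called, 16.9% lower and 13.2% higher. In dry soil 6 of 33 were lower and 2 higher without the filter, where 9.26% of all loci were lower and 10.9% higher. The dry-soil count of 8 calls became 14 without Kas-1 dry 2, and the wet-soil count of 17 became 11 without Tsu-1 wet 7 or Tsu-1 wet 9. Without the 4 arrays of lowest weight, which include these 3, the order of the soils turned, with 9 calls in wet and 18 in dry soil, and array weights gave 19 and 21. The share of all loci called in these refits was not worked out, so whether the counts follow it is not known. In the main test 3 of 13 were lower and 2 higher, where 30.5% were called, 13.8% lower and 16.8% higher. The means of 28 of 33 genes were lower in both soils and those of 3 were higher in both. The gap was wider in wet soil for 23 of 33 genes, but the interaction test called 0 of them in either fit, where 0% of the loci were called. At an unadjusted p under 0.05, 1 gene passed in either fit, as did 722 of the 12308 loci in the main test.

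In wet soil 5 of the 33 genes had groups that did not overlap, which was so for 9.23% of all loci, and the lower ones were PCNA1, TSO2, CDKA;1 and MCM2. In dry soil HTA7 was the 1 such gene, against 8.69% of all loci. Over all 12 arrays of each accession no gene was free of overlap, against 3.12% of all loci.

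Soil drying moved none of the 33 genes past the threshold, whether averaged over the accessions (0.13% of the 12308 loci called), in Tsu-1 (0.00812%) or in Kas-1 (0.0731%). Without the filter 0.0487%, 0.00975% and 0.00487% of all loci were called in these comparisons. At an unadjusted p under 0.05, 1 of 13 genes passed averaged over the accessions, 1 in Tsu-1 and 2 in Kas-1. Of the 12308 loci tested, 1151, 591 and 1311 passed in the same comparisons. Dry and wet groups overlapped for every gene in both accessions, where 0.829% of all loci did not overlap in Kas-1 and 0.21% in Tsu-1. The intervals leave room for moderate changes. In Kas-1 the mean of TSO2 was 0.46 lower in dry soil (95% interval -0.97 to 0.05), and that of PCNA1 was 0.38 lower (-0.91 to 0.15). In Tsu-1 the drying difference of TSO2 was -0.08 (-0.59 to 0.43) and that of PCNA1 was -0.07 (-0.60 to 0.46). CYCD3;3 had the smallest p averaged over the accessions, with a change of -0.19 (SE 0.08, unadjusted p = 0.0253, limma adjusted p = 0.428).

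**Figure D3:**
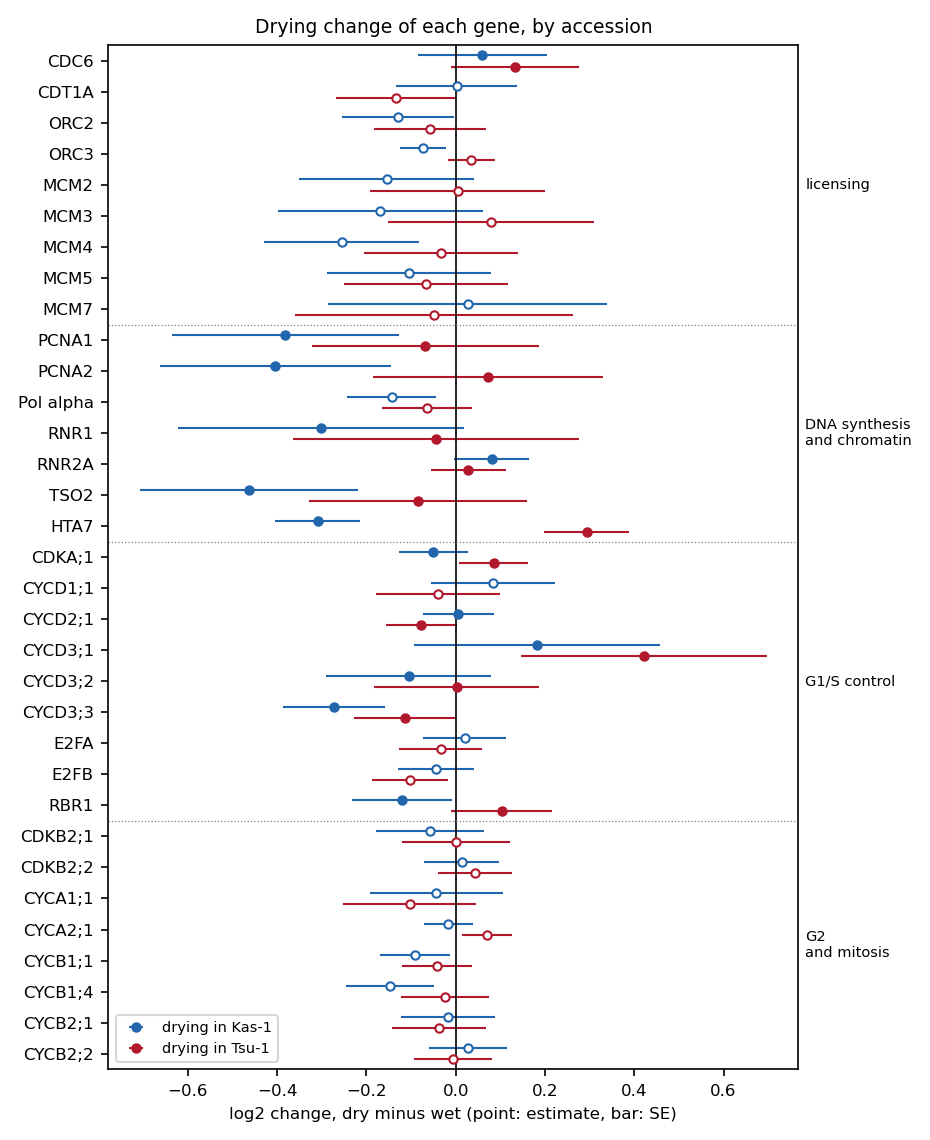
Log2 change dry minus wet (x axis) of each of the 33 genes (y axis, ordered by role) in Kas-1 and in Tsu-1, with the SE as bars, from the fit without the filter; filled points are above the filter and open points below it. None was called, and HTA7 lies on opposite sides of 0 in the accessions, at -0.31 in Kas-1 and 0.29 in Tsu-1.

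The HTA7 means lay in opposite order in the accessions. The mean was 8.75 ± 0.20 in dry and 9.06 ± 0.17 in wet Kas-1, and 9.62 ± 0.14 in dry and 9.33 ± 0.11 in wet Tsu-1 (SD, n = 6 arrays each). The drying difference was -0.31 in Kas-1 (95% interval -0.50 to -0.11, limma adjusted p = 0.231) and 0.29 in Tsu-1 (0.10 to 0.49, limma adjusted p = 0.632). The difference between the accessions in drying response was 0.60 (SE 0.13, unadjusted p = 1.54e-04), and it did not pass over all loci (limma adjusted p = 0.347, with 0% of the loci called). With array weights the adjusted p was 0.0370, and without the 4 arrays of lowest weight it was 0.0312, in fits that called 0.341% and 2.94% of all loci tested.

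Several S-phase genes also varied from array to array within a group. The pooled SD within groups was 0.60 for RNR1, 0.59 for MCM7, 0.48 for PCNA2, 0.47 for PCNA1 and 0.45 for TSO2, against a median of 0.20 over the loci tested. For RNR1, 96.8% of the loci tested varied less. CYCD3;1, outside the S-phase genes, had an SD of 0.51. RNR2A (SD 0.13) and CDKA;1 (SD 0.12) were among the steadier genes. Of the S-phase genes, ORC3 (SD 0.09), HTA7 (SD 0.16) and DNA polymerase alpha (SD 0.18) also lay below that median. Kas-1 dry 2, the array of lowest weight (0.283), lay below its group mean for all 16 S-phase genes. Kas-1 dry 5 and 6 lay above their group mean for 15 of 16, and Tsu-1 wet 8 lay above its group mean for 14. Of the 8 genes of G2 and mitosis, 0 lay above the group mean in Kas-1 dry 2, 6 in Kas-1 dry 5, and 4 in Kas-1 dry 6 and in Tsu-1 wet 8. Among arrays above the group mean for 13 of the S-phase genes, that count ran from 2 in Tsu-1 dry 5 to 8 in Kas-1 dry 3 and Kas-1 wet 9. The share of all loci above the group mean on these arrays was not worked out.

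**Figure D4:**
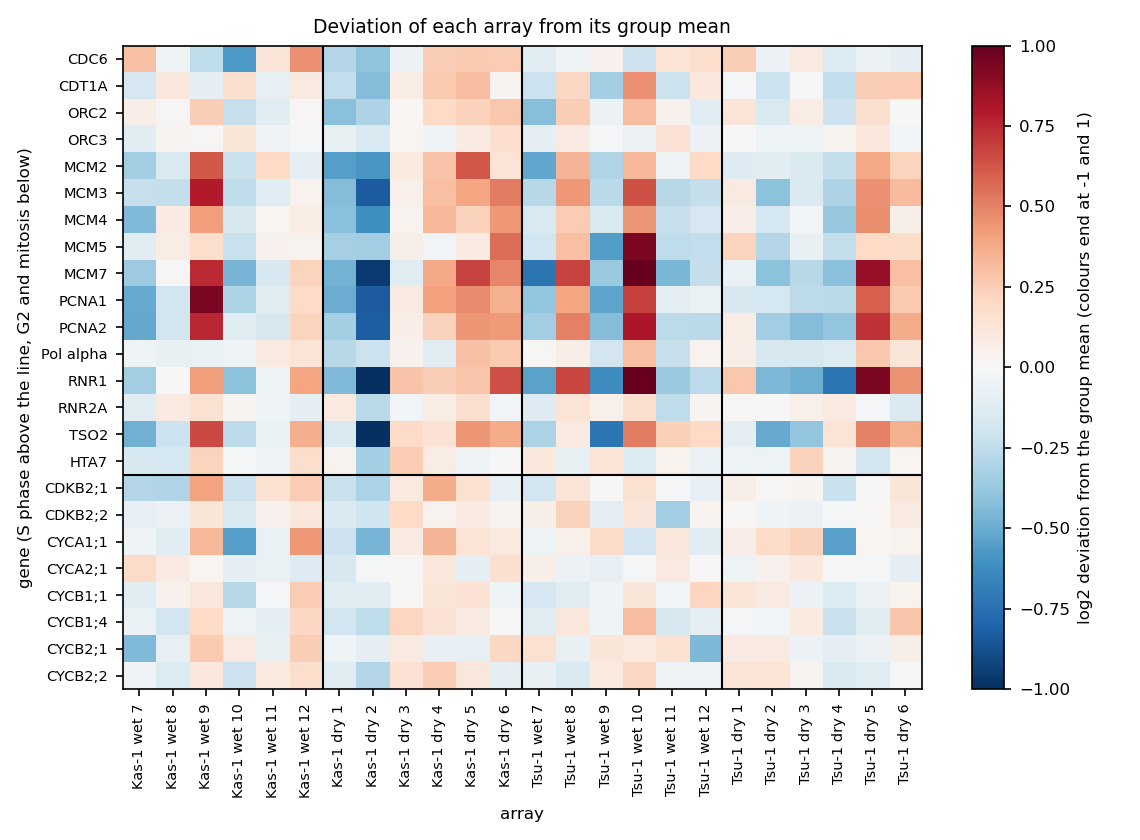
Log2 deviation from the group mean (colour) of the 16 S-phase genes and the 8 genes of G2 and mitosis (rows) on each of the 24 arrays (columns, in 4 groups of 6). Kas-1 dry 2 is low for all 16 S-phase genes and all 8 of G2 and mitosis. Kas-1 dry 5 and 6 are high for 15 of the S-phase genes, and Tsu-1 wet 8 is high for 14.

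In wet soil the mean over the 16 S-phase genes was 5.99 ± 0.30 in Tsu-1 and 6.61 ± 0.22 in Kas-1, and in dry soil it was 5.99 ± 0.23 and 6.44 ± 0.36 (SD, n = 6 arrays each). A list of 9 genes that respond to touch and handling had means of 11.3 ± 0.79 in wet Tsu-1, 10.9 ± 0.53 in wet Kas-1, 11.4 ± 0.16 in dry Tsu-1 and 11.3 ± 0.36 in dry Kas-1. Of these 9 genes, 1 was called higher in Tsu-1 averaged over the soils in the main test and 0 without the filter. The shares of loci called higher in these fits were 23.3% and 17.2%. The array highest in the handling genes was the lowest in the S-phase mean in every group except Tsu-1 dry, where it was the second lowest. At the other end, the array lowest in the handling genes was not the highest in the S-phase mean in any group, with rank 3 from the lowest in both dry groups and rank 5 in both wet groups. In Kas-1 dry 2 the handling mean was 11.8 and the S-phase mean 5.86, and in Tsu-1 wet 9 they were 12.1 and 5.71. With the handling mean as a covariate, chosen after seeing the data, TSO2 and PCNA1 kept their calls averaged over the soils and in each soil. In that setting 6 other calls were lost, those of RNR2A and E2FA averaged over the soils and of MCM7, CDKB2;1, CYCB1;4 and DNA polymerase alpha in wet soil. The part of handling in the S-phase difference was not tested further.

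**Figure D5:**
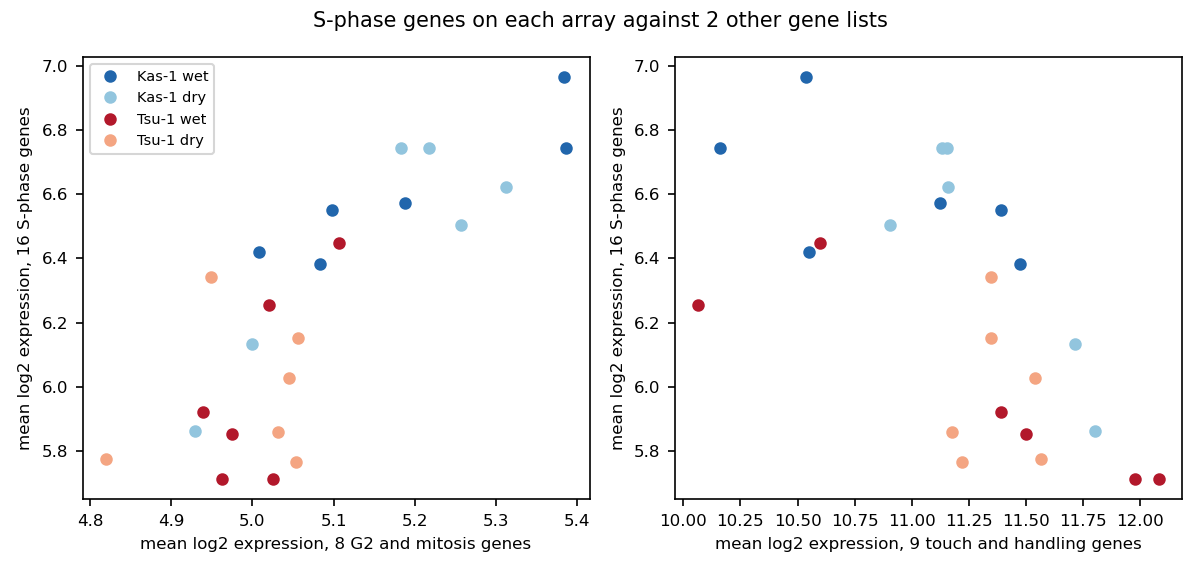
Mean log2 expression of the 16 S-phase genes (y axis) on each of the 24 arrays against that of the 8 genes of G2 and mitosis (left x axis) and of the 9 touch and handling genes (right x axis); points are arrays, coloured by group. Tsu-1 arrays lie mostly below Kas-1 arrays, and Tsu-1 wet 9 and Kas-1 dry 2 combine a high handling mean with a low S-phase mean.

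Markers of other cell types were set beside these results. The 3 of 5 leaf photosynthesis markers in the table had array means of 12.3 to 13.3. Of these, CA1 was lower in Tsu-1 averaged over the soils (-0.56, limma adjusted p = 0.0172) and in dry soil (-0.70, limma adjusted p = 0.0485). RCA and PSBO1 were not called. The 5 flower markers, of which 0 were above the filter, had array means of 4.52 to 4.91, and their accession differences are not given here. The 5 root markers had array means of 5.92 to 6.21, and 1, SCR, was above the filter. SCR was higher in Tsu-1 averaged over the soils (0.27, limma adjusted p = 0.00259) and in dry soil (0.30, limma adjusted p = 0.0203). In wet soil it was not called (0.23, limma adjusted p = 0.0709). Markers of the stomatal lineage, whose early cells divide, were lower in Tsu-1 for 5 of 7 genes without the filter. In that fit, averaged over the soils, 17.8% of all loci were lower and 17.2% higher. The array means of the stomatal markers in wet soil ran from 5.72 to 6.29 in Tsu-1 and from 6.08 to 6.45 in Kas-1. In dry soil they ran from 5.53 to 5.89 in Tsu-1 and from 5.87 to 6.27 in Kas-1. EPF2, a peptide of early stomatal precursors, differed by -0.71 (limma adjusted p = 8.23e-06), and FAMA, a late stomatal regulator, by -0.27 (limma adjusted p = 0.00547). Of 6 markers of proliferating young leaf, 3 were lower in Tsu-1 without the filter, ANT at -0.51 (limma adjusted p = 0.00194), GRF3 at -0.49 (limma adjusted p = 0.00179) and GRF2 at -0.29 (limma adjusted p = 0.0391). The means of the other 3, GRF1, AN3 and GRF5, were higher in Tsu-1, by 0.18, 0.16 and 0.08, and were not called. In dry soil GRF1 was called higher in Tsu-1 (0.42, limma adjusted p = 0.00381) and 0 of the 6 lower. Array means of that list in wet soil ran from 5.42 to 6.04 in Tsu-1 and from 5.63 to 6.45 in Kas-1. In dry soil they ran from 5.57 to 5.73 in Tsu-1 and from 5.48 to 5.84 in Kas-1. Of 5 shoot meristem markers, CLV1 was higher in Tsu-1 (0.93, limma adjusted p = 3.68e-08) and the other 4, STM, KNAT1, WUS and CLV3, were not called, with array means of the list from 5.57 to 6.12. The part of these cell types in the S-phase difference was not tested.

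Other genes of the cycle, listed by role, had 50 of 57 in the table and 20 above the filter. Of these 20, 5 were higher and 7 lower in Tsu-1 averaged over the soils, where 23.3% of the loci tested were higher and 24.5% lower. On drying, 0 were called in any of the 3 comparisons (limma). Averaged over the accessions, 2 of the 20 had an unadjusted p under 0.05, as did 1151 of the 12308 loci tested. CKS1 (AT2G27960), a subunit that binds CDKs, was 2.26-fold higher in Tsu-1 (log2 difference 1.17, SE 0.08, limma adjusted p = 1.18e-10), and its ranges in Tsu-1 lay above those in Kas-1 in both soils. Its paralog CKS2 (AT2G27970) was lower in Tsu-1 in wet soil (-0.57, SE 0.19, limma adjusted p = 0.0301). The CDK inhibitors SIM (AT5G04470) and SMR1 (AT3G10525, RefSeq symbol LGO), known for their part in endoreduplication, were higher by 0.49 and 0.57 (adjusted p = 8.05e-07 and 1.29e-04, limma). DPB (AT5G03415), a partner of E2F factors, was higher by 0.30 (adjusted p = 2.04e-04, limma). KNOLLE (AT1G08560, RefSeq symbol SYP111), a syntaxin of cytokinesis, was lower by a log2 difference of -0.59, and the A-type cyclin CYCA2;3 (AT1G15570) by -0.26 (adjusted p = 0.00284 and 0.00451, limma). Of 17 other genes of G2, mitosis and cytokinesis, 11 were lower and 0 higher in Tsu-1 without the filter. In that fit, averaged over the soils, 17.8% of all loci were lower and 17.2% higher.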

How the data were processed

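Leaf RNA of 24 samples was hybridised to expression arrays. The authors deposited 1 table of log2 values, 1 per locus and array. The unit was read from the values (3.12 to 14.2). Per the submitters' processing notes MAS5 was used, with no version or role given, so probe summary and scaling are not given in the sources used here. RefSeq names (TAIR10.1) matched 20290 loci and missed 224.

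Groups came from the titles. limma 3.58.1 in R 4.3.3 fitted 4 group means with an intensity trend to loci above the 40th percentile of the mean, and Benjamini-Hochberg adjustment ran over all loci of each comparison (two-sided). Intervals are limma's 95% intervals. The number of arrays limits the precision.

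Members and lists were chosen with earlier results of these data known. The rule for named genes took all members and, of other cycle genes, up to 6 called ones with the smallest adjusted p per comparison. Alternatives were quantile normalisation, median centring, other filters, no trend, array weights, averaged or omitted arrays, a replicate block and a handling covariate. Whether array numbers pair the accessions is not known. Deviations of same-numbered arrays correlated over 0.1 in 4 of 12 pairs, with values from -0.397 to 0.555. Such correlations cannot show whether same-numbered arrays were grown or handled together.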

Additional observations from a re-analysis of the deposited data

Results flagged for a closer look

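HTA7 stood out because its drying response differed between the accessions by 0.60 on the log2 scale, with all 6 Tsu-1 dry arrays above the Tsu-1 wet mean and all 6 Kas-1 dry arrays below the Kas-1 wet mean. The interaction test gave an unadjusted p = 1.54e-04 and an adjusted p = 0.347 (limma).

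Single arrays lay far from the other 5 of their group in 8 of 132 combinations of gene and group, where chance gives about 1 in 20, or 6.6. Kas-1 wet 9 was high for MCM3 (6.98, others 5.93 to 6.21) and for RBR1 (7.89, others 7.35 to 7.53). Kas-1 dry 2 was low for CYCD3;2 (7.59, others 8.44 to 8.91) and for RBR1 (7.08, others 7.38 to 7.53). Tsu-1 wet 8 was low for CYCD3;1 (6.29, others 7.42 to 7.68), although it was high for most S-phase genes. Kas-1 wet 12 was high for E2FA (5.44, others 5.22 to 5.30), Kas-1 wet 8 was high for E2FB (5.14, others 4.63 to 4.81), and Tsu-1 dry 4 was low for CYCA1;1 (4.24, others 4.80 to 5.02).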

How the results depend on the processing

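None of the 47 member results followed, which were the called differences and the HTA7 interaction, reversed under any setting. Member differences that were not called were not checked for this. Differences of TSO2, PCNA1 and CYCD2;1 kept their calls in all 3 accession comparisons and every setting that tested them, as did those of HTA7 averaged and in dry soil. The call of RNR2A was lost in 5 of 12 settings, and that of PCNA2 in wet soil without the low-weight arrays, numbers 7 and 9 of Tsu-1 wet and 1 and 2 of Kas-1 dry (adjusted p = 0.0677, limma). The filter changed the counts by construction. Without it 19 members were called averaged over the soils, 17 in wet and 8 in dry soil, and with a 60th percentile filter 5, 4 and 3, against 8, 7 and 5. In these comparisons the main test called 47.7%, 30.1% and 30.5% of the loci tested. Without the filter 35% of all loci were called averaged over the soils. For the 60th percentile filter, the block and the fits that left out 1 array, the share of all loci called is not given here. Whether their counts follow that share is therefore not told. The interaction count was 1 with array weights and 1 without the low-weight arrays, against 0, in fits that called 0.341% and 2.94% of the loci tested, and the cause was not tested. In the fit without the filter, leaving out the low-weight arrays gave 9 in wet and 18 in dry soil. There array weights gave 21 in dry soil and the handling covariate 13, and the cause was not tested. For the refits without the filter, the share of all loci called was not worked out. Leaving out 1 array at a time gave 7 to 8 averaged, 6 to 8 in wet soil, 4 to 6 in dry soil and 0 for drying and the interaction. Without the filter the ranges were 18 to 21, 11 to 19 and 6 to 14. The 11 came without Tsu-1 wet 7 or Tsu-1 wet 9, and the 14 without Kas-1 dry 2. A replicate block gave 8, 7 and 5, and 18, 15 and 6 without the filter. The best match of a Kas-1 array among the Tsu-1 arrays of its soil had the same number in 2 of 12 cases. Of 47 member results, 8 were lost with consecutive numbers averaged, 2 with numbers 3 apart averaged, 7 without the low-weight arrays, 6 with the handling covariate, 4 with the block (E2FA averaged, CDKB2;1 and CYCB1;4 in wet and ORC2 in dry soil) and 4 with Kas-1 dry 4 and 5 averaged, which correlated at 0.995.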
